A study of Mus musculus with 53 samples.

Results

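A group of 94 probes, of the 20175 counted, was defined in 1 mouse as standing at similar levels in the pericyte segments of the median eminence (ME) and the cortex and at lower levels in the fibroblast segments of the ME. The members were chosen on animal 3 alone. Counts were summed per segment type and scaled to a total of 1000000 (CPM, on which scale the mean probe is at 49.6). A probe was kept when it reached at least 80 CPM in both pericyte types, when the ratio of ME over cortex pericyte level lay from 0.67 to 1.5, and when the lower of both pericyte levels was at least 1.3 times the ME fibroblast level, with that level floored at 5 CPM. A cap of 100 members was not reached. Members were ranked by the ratio of the lower pericyte level to the fibroblast level, and rank 1 is the highest ratio.

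The study profiled RNA in areas of brain sections with barcoded in situ hybridization probes that are released by ultraviolet light (GeoMx digital spatial profiling). All mice were young adults of the genotype Pdgfra-H2B-EGFP/+, untreated as far as the labels say. Areas positive for Desmin protein and negative for GFP were collected as pericyte segments in the ME (17 segments) and the cortex (15 segments), and GFP-positive, Desmin-negative areas as fibroblast segments in the ME (20 segments). One further GFP segment came from the cortex.

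The 53 segments came from 4 animals, and the animal is the replicate. Animal 1 had no ME pericyte segment, and animal 2 had 1. The reporter drives a nuclear GFP from the Pdgfra locus, which is active in fibroblasts and also in oligodendrocyte precursor cells of the brain parenchyma, so a GFP area in the cortex need not hold fibroblasts. Each segment is a small piece of tissue that can hold several cell types, and fewer cells of a type and less RNA per cell cannot be told apart.

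Pericytes are mural cells embedded in the basement membrane of capillaries, where they contact endothelial cells and help to stabilize the vessel. In the cortex they surround capillaries that form the blood–brain barrier. The ME is a circumventricular organ of the hypothalamus whose capillaries are fenestrated and leaky, and fibroblasts lie close to these vessels.

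The files and tables used here do not pair probes with genes. The members therefore carry probe identifiers and ranks, their known functions cannot be given, and the pericyte and fibroblast labels could not be checked against marker genes. Desmin and GFP stainings were used to pick the areas, so their own transcripts would be no finding between segment types.

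Total counts per segment ranged from 24517 to 95935 in ME fibroblast segments, from 26490 to 140347 in ME pericyte segments and from 25864 to 656061 in cortex pericyte segments. The cortex GFP segment held 21654 counts. Animals 1 and 2 were on 1 plate and animals 3 and 4 on another according to the file headers, and sequencing saturation was 92.4% to 95.2% on the first and 71.2% to 90.7% on the second. Segment type was compared within each animal, and so within a plate.

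Of the 20175 probes, 1107 reached 80 CPM in both pericyte types of animal 3. The ME over cortex ratio was under 0.67 for 164 of these and over 1.5 for 214, which left 729 probes. The requirement on the fibroblast level then left the 94 members. The ratio to fibroblast was 1.30023 for the member just inside that limit and 1.29964 for the probe just outside it. The lower pericyte level was 80.8 CPM just inside the limit and 79.6 CPM just outside, and the ME over cortex ratio was 0.675 against 0.666 at the lower limit and 1.48 against 1.51 at the upper limit.

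In animal 3, which chose them, the members had a median level of 122.9 CPM in ME pericyte, 130.9 CPM in cortex pericyte and 75.7 CPM in ME fibroblast segments. The ratio to fibroblast ran from 1.3 to 5.07 with a median of 1.53. It was at least 2 for 18 members, so most members stood only modestly above the fibroblast level even where they were selected. These values describe the selection and were not tested.

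The members' summed share of all counts was higher in the pericyte segments of the 3 animals that the selection did not use. In animal 1 the share was 2.28% in cortex pericyte and 1.52% in ME fibroblast segments. In animal 2 it was 2.28% in ME pericyte, 2.24% in cortex pericyte and 1.77% in ME fibroblast segments. In animal 4 it was 1.73%, 2.10% and 0.9944% in the same order. Each of the 5 pericyte values lay above the fibroblast value of its own animal. The gap was widest in animal 4 and narrowest in animal 2.

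By single segment, the share ran from 0.973% to 1.77% in the 5 ME fibroblast segments of animals 1, 2 and 4, with a median of 1.01%. It ran from 1.35% to 2.28% in the 4 ME pericyte segments of animals 2 and 4. It ran from 1.88% to 2.28% in the 9 cortex pericyte segments of animals 1, 2 and 4. Cortex pericyte and ME fibroblast segments did not overlap, whereas the lowest ME pericyte segment, from animal 4, lay below the fibroblast segments of animals 1 and 2. Within animal 4 the types were apart: 0.973% to 1.01% in 3 ME fibroblast, 1.35% to 1.85% in 3 ME pericyte and 1.88% to 2.22% in 6 cortex pericyte segments. Over both plates, ME fibroblast segments of animals 1 and 2 (1.52% and 1.77%) lay above all 18 of animals 3 and 4 (0.920% to 1.22%). Animal and plate cannot be told apart in that difference.

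A few abundant members carried much of the sum. The 5 members of highest mean pericyte level in animal 3 held 24.6% to 42.7% of the members' counts in pericyte and ME fibroblast sums. Without those 5, the share was 1.57% in cortex pericyte and 1.11% in ME fibroblast segments of animal 1. In animal 2 it was 1.31% in ME pericyte, 1.54% in cortex pericyte and 1.15% in ME fibroblast segments, and in animal 4 it was 1.20%, 1.49% and 0.749%. The order of pericyte above fibroblast stayed in all 3 animals, and in animal 2 the ME pericyte value came closer to the fibroblast value.

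Member by member, the separation depended on the animal. In animal 4, 88 of 94 members were higher in cortex pericyte than in ME fibroblast segments, against 51.8% of all probes. In animal 1 this held for 64 of 94 against 46.8% of all probes, and in animal 2 for 56 of 94 against 54.7%. For ME pericyte over ME fibroblast segments, 81 of 94 members were higher in animal 4 against 56.4% of all probes, and 56 of 94 in animal 2 against 45.6%. Against all probes, the shares of members lay closest to the background in animal 2. A nearer background was 635 probes that met the same level and ME over cortex limits in animal 3 and were not members. Of these, 48.8%, 40.3% and 52.6% were higher in cortex pericyte segments of animals 1, 2 and 4. In ME pericyte segments 40.2% and 50.6% were higher in animals 2 and 4. Each share of members lay above that of the 635, also in animal 2.

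The counts behind these directions differed widely. The median member had 193.5 counts in the cortex pericyte sum of animal 4, 22 in its ME pericyte sum and 7.5 in its ME fibroblast sum. It had 3 counts in the single ME pericyte segment of animal 2, where 3 members had none. In the cortex pericyte and ME fibroblast sums the median member had 6 and 6.5 counts in animal 1, and 7 in each in animal 2. Animals 1 and 2 therefore gave little information on single members.

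Most members were above fibroblast in most of the 5 pericyte sums of animals 1, 2 and 4. Of the 94, 20 were above the fibroblast sum of the same animal in 5 of 5, against 6.48% of all probes. A further 36 were above it in 4 of 5, against 19.1% of all probes. None was above it in 0 or 1 of 5, against 6.39% and 16.3% of all probes, and 13 were above it in 2, against 25.0%. Cortex pericyte sums were higher in each of animals 1, 2 and 4 for 36 members, against 16.2% of all probes, and for 21 of them no cortex pericyte sum was as low as any fibroblast sum, against 8.59%. ME pericyte sums were higher in both animals for 47 members, against 26.4% of all probes, and did not overlap the fibroblast sums for 28, against 17.9%. All 4 shares of members exceeded those of all probes. The 5 sums are not independent, since ME and cortex pericyte sums of animals 2 and 4 share a fibroblast sum.

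On a log2 scale with 0.5 counts added, which raises the ratio of thinly counted probes in the shallower library, the members were set beside 635 probes that met the same level and ME over cortex limits in animal 3 and were not members. The median log2 ratio of cortex pericyte over ME fibroblast level in these 635 was -0.04, -0.21 and 0.01 in animals 1, 2 and 4, against 0.59, 0.08 and 0.93 in the members. For ME pericyte over ME fibroblast level it was -0.12 and -0.04 in animals 2 and 4, against 0.26 and 0.64 in the members. The members' median lay above that of the 635 probes in each of these 5 cases. The members' median was above that of all 20175 probes in animals 1 and 4 and not in animal 2. The median of all probes for cortex pericyte over ME fibroblast level was 0.10, 0.08 and -0.16 in animals 1, 2 and 4, so members and all probes were at the same value in animal 2. For ME pericyte over ME fibroblast level it was 0.37 in animal 2, above the members' 0.26, and -0.08 in animal 4. Over both sums, all probes had a median of 3 counts in animal 1, and of 4 and 3 in the 2 comparisons of animal 2. Their medians there lean on the added 0.5 counts and are no firm background. By CPM, 59.6% of members were higher in both comparisons of animal 2, against 54.7% and 45.6% of all probes. The members differ from the 635 probes by the fibroblast ratio of animal 3, so that comparison describes how the ratio recurred.

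Across animals 1, 2 and 4, the question was whether cortex pericyte and ME fibroblast segments differed at the members in animals not used to choose them. These segments differ in region as well as in type, and region and type cannot be told apart in this comparison. Counts summed per animal were fitted over all probes by edgeR, using its quasi-likelihood test and a block for the animal. With no filter on low counts, so that all 94 members entered, the median fitted log2 difference was 0.80 over the members and 0.25 over all 20175 probes. In that fit 6 members were called higher, at a Benjamini-Hochberg adjusted p under 0.05 and a log2 difference over 1, against 1.61% of all probes, and 0 were called lower against 0.401%.

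The filter on low counts asked for a level worth 10 counts in a sum of median total, in as many sums as a group holds. With it, 581 probes were tested and 23 of the 94 members were among them. Of these, 10 were called higher, against 25.6% of the probes tested, and 0 were called lower, against 15.5%. At an unadjusted p under 0.05, 11 were higher, against 29.9% of the probes tested, and 0 lower, against 24.3%. DESeq2 called 5 of the 94 members higher against 6.81% of its probes and 0 lower against 3.58%. The 10 calls had log2 differences of 1.05 to 1.90, and each of the 10 was higher in cortex pericyte segments in all 3 animals. Members that passed the filter could do so through their cortex pericyte level, so this count is a description.

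A member called in this comparison was probe RTS0068041, rank 2. It stood at 657 CPM in cortex pericyte and 210.5 CPM in ME fibroblast segments of animal 1, at 630 and 193 CPM in animal 2, and at 397 and 70.6 CPM in animal 4. The cortex pericyte values did not overlap the fibroblast values. The fitted log2 difference was 1.90 ± 0.32 (SE; adjusted p = 0.000797, edgeR quasi-likelihood test with Benjamini-Hochberg adjustment). In ME pericyte segments the same probe was at 491 CPM in animal 2, from 13 counts, and at 278 CPM in animal 4, from 55 counts.

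For ME pericyte over ME fibroblast segments, only animals 2 and 4 had both types, and the fit had 1 residual degree of freedom per probe. Its p-values and standard errors rest almost wholly on variance shared between probes. With no filter, the median log2 difference was 0.45 over the 94 members and 0.08 over all 20169 probes. Of the members 0 were called in either direction by edgeR, as of all probes (0%). At an unadjusted p under 0.05, 4 members were higher, against 0.555% of all probes, and 0 lower, against 0.208%. DESeq2 also called 0.

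With the filter, 932 probes were tested and 40 members were among them, of which 4 were called higher against 3.00% of the probes tested, and 0 lower against 2.68%. The 4 calls were ranks 1, 2, 5 and 44. Members could pass the filter through their ME pericyte level alone, as rank 44 did with 5 counts in each fibroblast sum, so this count is a description. Without the block for the animal, 0 were called. The median log2 difference of the 40 was 0.48 in the fit, and it was 0.07 in animal 2 alone and 0.82 in animal 4 alone. Rank 2 was the only member called against fibroblast segments in both regions, of 21 members tested in both, and both comparisons share the fibroblast sums of animals 2 and 4. For RTS0068041 the log2 difference was 1.54 ± 0.41 (SE; adjusted p = 0.00715, edgeR quasi-likelihood test), and ME pericyte exceeded ME fibroblast level in both animals.

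The largest selection ratio belonged to probe RTS0075344, rank 1. It stood at 4379 CPM in the ME pericyte and 1489 CPM in the ME fibroblast segment of animal 2, and at 904 and 121 CPM in animal 4. The fitted log2 difference was 1.90 ± 0.32 (SE; adjusted p = 4.61e-07, edgeR quasi-likelihood test). Both the SE and the p rest almost wholly on variance shared between probes. RTS0075344 varied more between segments than the median member, so they can understate its own spread. The difference appeared in both animals, but the fibroblast value of animal 2 exceeded the pericyte value of animal 4, so the types overlapped across animals.

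The level of RTS0075344 in ME fibroblast segments was itself uneven. It was 891 CPM in animal 1 and 1489 CPM in animal 2, against 63.3 to 254 CPM in the 18 segments of animals 3 and 4. In cortex pericyte segments it was 1022 to 2088 CPM in the 3 segments of animals 1 and 2 and 634 to 982 CPM in the 12 of animals 3 and 4. Against ME fibroblast segments the cortex pericyte level was 1022 and 891 CPM in animal 1, 1706 and 1489 CPM in animal 2, and 737 and 121 CPM in animal 4. The fitted log2 difference of 0.86 ± 0.43 (SE; adjusted p = 0.121, edgeR quasi-likelihood test) did not pass the threshold.

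RTS0075344 also varied more between segments of 1 animal and type than counting alone gives. The variance of its count over the segments was 5.75 times the counting variance in the 6 cortex pericyte segments of animal 4, 6.13 times in the 6 of animal 3 and 6.46 times in the 13 ME pericyte segments of animal 3. In the 15 ME fibroblast segments of animal 3 it was 1.75 times. The median member had 1.21, 1.37, 1.24 and 1.03 times in the same sets, close to counting error. Above 2 times were 27, 27, 15 and 1 of the 94 members in these sets, so RTS0075344 was not alone. Of the 635 other probes at the same level and ME over cortex limits, 128, 143, 44 and 30 were above 2 times. RTS0068041 had 1.40, 2.95, 2.54 and 0.89 times.

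At the other end stood the members with the lowest fitted difference of ME pericyte over ME fibroblast segments among the 40. Probe RTS0071633, rank 87, was at 37.8 CPM in the ME pericyte segment of animal 2, from 1 count, and at 280.3 CPM in its ME fibroblast segment. In animal 4 it was at 131 and 121 CPM. Its log2 difference was -0.61 ± 0.49 (SE; adjusted p = 0.527, edgeR quasi-likelihood test). Probe RTS0080692, rank 53, was at 227 and 123 CPM in animal 2 and at 126 and 192 CPM in animal 4, with a log2 difference of -0.38 ± 0.47 (SE; adjusted p = 0.717). Neither passed the threshold. The animals differed in direction for RTS0080692. For RTS0071633 they did so only in CPM of all counts, and after the scaling of the fit the ME pericyte level was below the ME fibroblast level in both animals (126 against 1012 in animal 2 and 516 against 528 in animal 4).

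The ratio between the regions was examined apart from the ratio to fibroblasts. In animal 4, the ME over cortex pericyte ratio lay from 0.67 to 1.5 for 68 of 94 members, against 55.8% of all probes. In the 635 probes that met the same limits in animal 3 it did so for 74.2%. In animal 2 it lay in that range for 30 of 94 members, against 20.1% of all probes and 45.2% of the 635. The members thus held the ratio of animal 3 in a share of cases above all probes and not above that of other probes chosen by the same ratio.

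Within animal 4 the members leaned towards the cortex. Of the 94, 75 were lower in ME than in cortex pericyte segments, against 48.0% of all probes, with a median log2 ratio of -0.28 against 0.03 in the 635 probes. In animal 2, 45 were lower, against 44.9% of all probes. Both animals together had 40 members lower in ME pericyte segments in each animal, against 23.4% of all probes, and 14 higher in each, against 26.0%. The sums of the 2 regions did not overlap for 30 members that were lower in the ME, against 17.2% of all probes, and for 6 that were higher, against 18.7%.

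The fit of ME over cortex pericyte segments in animals 2 and 4 tested 2458 probes and 90 of the members, again with 1 residual degree of freedom. Of the 90 members, 0 were called higher against 9.36% of the probes tested, and 1 was called lower against 11.1%. At an unadjusted p under 0.05, 2 were higher, against 16.2% of the probes tested, and 6 lower, against 16.4%. DESeq2 called 0 higher against 1.68% of its probes and 0 lower against 3.96%. The median log2 difference was -0.13 over the members and 0.15 over all probes tested. That gap was present in animal 4 alone (-0.11 against 0.21) and absent in animal 2 alone (-0.15 against -0.15). Fitted ratios lay from 0.67 to 1.5 for 70 of 90 members, against 45.9% of the probes tested. The members were chosen by this range in animal 3, so the probes tested are not a like background. By CPM their share in it was not above that of the 635 probes chosen by the same range, in either animal.

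A difference that misses the threshold does not show equal levels. The 95% interval of the ratio lay within 2-fold in either direction for 11 of the 90 members, against 4.64% of the probes tested, and its median width was 1.84 on the log2 scale. Equal levels in ME and cortex pericyte segments were therefore bounded within 2-fold for few of the members. These intervals rest almost wholly on variance shared between probes, so they do not measure the spread of a single probe between animals. The member called lower was rank 83, at 75.5 CPM in ME and 223 CPM in cortex pericyte segments of animal 2 and at 55.6 and 164 CPM in animal 4. Its ME counts were 2 and 11, and its log2 difference was -1.44 ± 0.52 (SE; adjusted p = 0.0291, edgeR quasi-likelihood test).

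The leading members differed between regions in different ways. RTS0075344 was at 4379 CPM in ME and 1706 CPM in cortex pericyte segments of animal 2, and at 904 and 737 CPM in animal 4, with a log2 difference of 0.82 ± 0.38 (SE; 95% interval 0.07 to 1.56; adjusted p = 0.117, edgeR quasi-likelihood test). RTS0068041 was at 491 and 630 CPM in animal 2 and at 278 and 397 CPM in animal 4, with a log2 difference of -0.40 ± 0.41 (SE; 95% interval -1.21 to 0.41; adjusted p = 0.536). Neither interval lay within 2-fold. Both rest on variance shared between probes, and that of RTS0075344 can understate its own spread.

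ME pericyte and ME fibroblast segments of the same region of interest gave 17 pairs. In the 4 pairs of animals 2 and 4, the members' share was 2.28% and 1.77% in animal 2, and 1.35% and 0.973%, 1.85% and 1.01%, and 1.77% and 1.01% in animal 4, in pericyte and fibroblast segments. The pericyte share was higher in 4 of 4, by ratios of 1.29, 1.39, 1.84 and 1.75. In the 13 pairs of animal 3 it was higher in 13 of 13 with ratios of 1.55 to 2.07, as the selection required of their sum.

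Single members were less even across the pairs. From 54 to 73 of the 94 members were higher in the pericyte segment in each of the 4 pairs, where 38.3% to 54.4% of all probes were. In animal 4, 37 members were higher in 3 of 3 pairs, against 11.6% of all probes, and 6 were higher in none, against 14.4%. RTS0075344 and RTS0068041 were higher in the pericyte segment in 4 of 4 pairs of animals 2 and 4. The 3 pairs of animal 4 come from 1 mouse and are not replicates.

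The cortex GFP segment allowed a comparison with a segment of the same region and animal that had not been picked by Desmin. It held 71 nuclei and 315 member counts, a share of 1.45% (95% exact Poisson interval 1.298% to 1.62%). The cortex pericyte segment of the same region of interest held 87 nuclei and 627 member counts, a share of 2.23% (2.06% to 2.42%). The share was 1.54 times higher in the pericyte segment (95% interval 1.34 to 1.76). The intervals cover counting error only, and there was 1 segment of each, with no replicate.

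Of the 94 members, 61 (64.9%) were higher in that pericyte segment, against 37.5% of all probes, 31 were lower, against 42.4%, and 2 were equal. Of all probes, 4063 were equal, which lowers their share. Among the 635 probes that met the same level and ME over cortex limits in animal 3, 55.7% were higher, so the members stood less far above probes of like level. In the GFP segment 11 members had no count, which allows a level of up to 138.5 CPM. RTS0075344 had 38 counts in the pericyte and 13 in the GFP segment, at 1354 and 600.4 CPM. Their 95% intervals of 958 to 1858 CPM and 320 to 1027 CPM overlapped, which does not show equal levels, and their ratio was not tested. RTS0068041 had 10 and 5 counts, which do not separate the segments at this depth. The member share of 1.45% in the GFP segment of the cortex was below that in the single ME fibroblast segments of animals 1 and 2, although its interval covered the 1.52% of animal 1, and it was above all 18 ME fibroblast segments of animals 3 and 4 (0.920% to 1.22%).

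Members with a high selection ratio kept larger differences in animal 4 than the rest. The 18 members with a ratio of at least 2 in animal 3 summed to 3.13 times the ME fibroblast share in cortex pericyte and 2.61 times in ME pericyte segments of animal 4. The 76 members under 2 summed to 1.92 and 1.57 times. In animal 2 the ratios were 1.45 and 1.93 for the 18 and 1.21 and 1.07 for the 76, and in animal 1 the cortex pericyte ratio was 1.496 and 1.501. The order of both sets was the same in 4 of the 5 cases, with almost equal ratios in animal 1.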

How the data were processed

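Barcoded probes were counted in 53 segments of 4 animals. The authors processed reads with GeoMx NGS Pipeline 2.3.4 and deposited raw deduplicated counts per probe, 1 file per segment, without normalization. All 893633 listed values were whole numbers, unlisted probes were set to 0, and no segments held identical values. For 45 files the unit was read automatically, and 8 deposited files with other header values were checked as whole numbers on loading. Segment type came from the sample labels. The replicate tag in the labels was taken as the animal number, because the study reports 53 segments from 4 animals. Members, lists and tests were chosen with earlier results of these data known.

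Counts were summed per animal and type, filtered with filterByExpr (minimum count 10), scaled by the upper quartile (percentile 75) and fitted with edgeR 4.0.16 (R 4.3.3), robust quasi-likelihood option, with a block for the animal. P-values were adjusted by Benjamini-Hochberg over all probes tested. A call needed an adjusted p under 0.05 and a log2 difference over 1 in size. Standard errors are the log2 difference divided by the square root of F. The fits were tested on simulated data. CPM is scaled to 1000000 over all counts of a sum or segment, and shallow sums limit precision.

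The pairing comes from the animal: both sums of a pair are from 1 mouse. The correlation of deviations from group means inside an animal was -0.02, -0.10 and -0.02 for cortex pericyte and ME fibroblast sums, 0.36 for ME pericyte and ME fibroblast sums and 0.06 for ME and cortex pericyte sums. Alternatives were TMM scaling, library totals, no filter, DESeq2 1.42.0, single segments, limma 3.58.1 on means per animal, no block, each animal left out and other limits of the selection.

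As no table gave genes for the probes, the identifiers printed are, by rule, the 2 members of highest selection ratio and the 2 with the lowest fitted ME pericyte over ME fibroblast difference. Other members are given by rank or count. Negative control probes are not marked in the files used here, so a limit of quantification was not computed.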

Additional observations from a re-analysis of the deposited data

Results flagged for a closer look

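Of 8 tests for a segment that stood apart from the others of its group and animal, 1 passed. The usual chance rate of about 1 in 20 such groups does not apply to the quantity that passed, the number of members with a count. Cortex pericyte segment 13, of animal 4, had a count for 93 of the 94 members, where the other 5 cortex pericyte segments of that animal had a count for 94. As those were tied at the maximum, any lone lower value would have passed. The same test in animal 3 could not pass, since all 6 segments had a count for 94. Segment 13 is therefore given as a description. That segment held 91065 counts, the lowest total of the 6.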

How the results depend on the processing

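For cortex pericyte over ME fibroblast segments, 10 members were called higher. Without the filter 6 and by DESeq2 5 were called, and each animal left out gave 7 to 10. The median log2 difference of 0.80 was 0.45 by limma on means per animal and 0.58 to 0.62 with an animal left out. The median of all probes tested was 0.05 in the main fit, 0.31 with single segments and 0.23 by limma. The members lay 0.75, 0.33 and 0.22 above it in the same order, and 0.55 above it both without the filter and by DESeq2. For ME pericyte over ME fibroblast segments, 4 members were called higher. The number was 0 without the filter, 0 by DESeq2, 1 with single segments and 1 by limma, and 2 without the 2 members of highest ratio, an alternative chosen after seeing the data. The pairing mattered there: with no replicate block 0 were called. Leaving out animal 2 or animal 4 left 1 sum of each type and no test, with medians of 0.82 and 0.07, so the median of 0.48 rests mainly on animal 4.

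For ME over cortex pericyte segments, 1 member was called lower. The number was 0 with library totals, 0 without the filter, 0 by DESeq2, 0 for members at 160 CPM or more, and 4 with single segments, which also called 1 higher. The median of -0.13 was -0.31 with TMM, -0.20 with library totals, -0.38 without the filter, -0.33 by DESeq2, -0.10 with single segments, -0.082 by limma, -0.37 at 160 CPM or more and -0.15 to -0.11 with an animal left out. Under upper-quartile, TMM and total scaling, the median of all probes tested was 0.15, -0.02 and 0.10, and the members lay 0.28 to 0.30 below it. The gap shrank to -0.056 with single segments and -0.063 by limma, and it was 0.00018 in animal 2 alone and -0.32 in animal 4 alone. For ME pericyte over ME fibroblast segments the median of all probes tested under the same scalings was -0.12, -0.03 and 0.08. The members lay 0.59 to 0.60 above that median. This distance was 0.20 in animal 2 alone and 0.91 in animal 4 alone. No median or count of calls over the members reversed its direction, and the cause of the other changes was not tested. With no replicate block the cortex pericyte over ME fibroblast fit called 9 members, all 9 among the 10, and the ME over cortex fit the same 1. Over all probes the block moved the ME over cortex calls from 150 to 230 higher and from 235 to 273 lower. The selection with no cap or with a floor of 20 CPM gave the 94 members, and with 160 CPM 25 of them.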
